A study of Mus musculus with 141 samples.

Results

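The apolipoprotein genes Apoa1, Apoa2, Apoa4, Apoa5, Apob, Apoc1, Apoc3, Apoe, Apoh and Apom were followed in liver, lung and kidney of the Collaborative Cross (CC), a panel of recombinant inbred mouse strains. They were chosen by gene symbol, and all 10 were found among the 24423 genes of the RNA-seq files.

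Apolipoproteins coat the lipid particles of blood plasma, hold them together, and steer them to enzymes and receptors. ApoB forms the frame of the particles that carry triglyceride out of the liver, ApoA-I forms that of high-density lipoprotein (HDL), and the smaller A, C and E proteins move between particles. The liver makes most of them, the intestine makes a part, macrophages are known for making ApoE, and the proximal tubule of the kidney is known for making ApoM.

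The libraries came from whole tissue of 47 CC strains, with 1 male mouse per strain and all 3 tissues taken from it, which gives 47 libraries per tissue and 3 from each mouse. The mice were 8 to 12 weeks old, were fed an NTP 2000 wafer diet, and were all held in chambers with clean air for 6 h per day over 2 weeks. RNA with an integrity number of at least 7 was sequenced. There was no treated group, so the comparisons are between tissues and across strains, and with 1 mouse per strain, strain, animal and library cannot be told apart. Library totals ran from 1738046 to 42158454 counts with a median of 9043226, and 4 strains (CC010, CC036, CC039 and CC045) had a shallow library. The tissue labels were borne out by the summed level of marker genes. The 12 hepatocyte markers summed to a median of 100459 CPM in liver (counts-per-million, with library sizes adjusted by TMM, the trimmed mean of M), 62.5 in lung and 161 in kidney. The 6 lung epithelium markers, of which Cldn18 had 0 counts in all libraries, summed to 10689 CPM in lung. The 8 kidney tubule markers summed to 28471 CPM in kidney. They were chosen for the proximal tubule, but Umod, a gene of the thick ascending limb, is among them. Several libraries held more of another tissue's markers than the rest. In lung, hepatocyte markers reached 587 CPM in CC010 and 507 in CC015, and in kidney 1029 CPM in CC027. In liver, kidney tubule markers reached 1100 CPM in CC035 and 973 in CC033, against a median of 43.1. Lung epithelium markers were highest there in CC033, at 177 CPM against a median of 26.8. Calls between tissues were the same in number without CC010, CC015 and CC027 and without CC033 and CC035.

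In the NCBIM37 build, which the files use, Apoa1 (chr9:46036663-46038549), Apoc3 (chr9:46041016-46043719), Apoa4 (chr9:46048779-46051542) and Apoa5 (chr9:46076716-46080002) lie in a cluster of 43.3 kb on chromosome 9. Apoc1 (chr7:20274833-20278007) and Apoe (chr7:20281458-20284515) lie 3.5 kb apart on chromosome 7. Apoa2 (chr1:173155185-173156510), Apob (chr12:7984454-8023641), Apoh (chr11:108204668-108275710) and Apom (chr17:35265942-35268995) lie on their own. Coordinates are those of the whole gene in the GENCODE vM1 annotation.

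Promoter windows of 300 bases, 250 before the start site and 50 from it on, were taken from RefSeq in the GRCm38.p6 build and were found for 8 of the 10 genes. Shown are the windows of Apoa1 (chr9:46228380-46228679, plus strand) and Apoa5 (chr9:46268358-46268657, plus strand), which were about as low outside liver as albumin, and of Apob (chr12:7977427-7977726, plus strand) and Apom (chr17:35131752-35132051, minus strand), which were well above it in kidney. Each reads 5′ to 3′ on the strand of the gene, and capitals mark a match to a motif searched on both strands. The motifs were the TATA box TATAAA, the nuclear receptor half-site AGGTCA, the HNF4 core CAAAGTCC and the cAMP response element core TGACGT.
Apoa1: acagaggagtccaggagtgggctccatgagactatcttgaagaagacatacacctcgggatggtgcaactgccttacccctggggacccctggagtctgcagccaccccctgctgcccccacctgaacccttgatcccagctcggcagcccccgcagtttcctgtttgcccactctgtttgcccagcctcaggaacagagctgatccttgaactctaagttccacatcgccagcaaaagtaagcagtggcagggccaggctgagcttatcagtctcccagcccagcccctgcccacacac
Apoa5: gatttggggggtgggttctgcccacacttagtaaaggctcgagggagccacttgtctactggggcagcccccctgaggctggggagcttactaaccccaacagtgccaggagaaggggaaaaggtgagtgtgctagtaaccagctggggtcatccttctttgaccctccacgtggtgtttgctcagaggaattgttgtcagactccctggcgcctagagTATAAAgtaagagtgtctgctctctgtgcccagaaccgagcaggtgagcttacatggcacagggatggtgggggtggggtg
Apob: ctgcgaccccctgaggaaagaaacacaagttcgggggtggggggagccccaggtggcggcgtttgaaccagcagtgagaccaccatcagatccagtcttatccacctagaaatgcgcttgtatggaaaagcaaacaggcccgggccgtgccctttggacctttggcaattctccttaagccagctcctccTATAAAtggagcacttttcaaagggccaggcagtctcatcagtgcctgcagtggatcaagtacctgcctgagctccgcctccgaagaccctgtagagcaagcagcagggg
Apom: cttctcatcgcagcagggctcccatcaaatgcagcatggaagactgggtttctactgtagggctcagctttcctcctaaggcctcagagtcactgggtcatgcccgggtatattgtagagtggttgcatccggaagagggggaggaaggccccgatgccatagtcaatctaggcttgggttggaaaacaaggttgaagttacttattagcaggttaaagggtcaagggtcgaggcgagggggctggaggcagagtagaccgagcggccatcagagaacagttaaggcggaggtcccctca
TATAAA stood at bases -31 to -26 from the start site in the Apoa5 window and at -60 to -55 in that of Apob. RefSeq holds another start site for Apoa5 (chr9:46268383-46268682), from which TATAAA stood at -56 to -51. The Apoa1 and Apom windows held none of these 4 motifs. Of 32851 windows in the table, 13.6% held TATAAA, 16.3% AGGTCA, 1.42% CAAAGTCC and 7.51% TGACGT. Such a match is a string of letters and not a known binding site.

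How a gene was counted may bear on its level. The authors quantified only reads that aligned uniquely, and the files list 1 RefSeq transcript for Apoa1, Apoa4, Apoa5, Apob, Apoh and Apom, but 5 for Apoa2, 2 for Apoc1 and 4 each for Apoc3 and Apoe. The median liver level of the first 6 ran from 593 to 13004 TPM (transcripts-per-million, a level per length), and that of the other 4 from 10.3 to 30.4 TPM. Over all genes, 821 of 18311 with 1 transcript (4.48%) had a median above 100 TPM in liver, against 19 of 6112 with more than 1 (0.311%). Of the related genes Apoc4 and Apoc2, Apoc4 (1 transcript) had a median of 1825 TPM and Apoc2 (2 transcripts) one of 16.3 TPM. The part of shared reads in the low counts of Apoa2, Apoc1, Apoc3 and Apoe was not tested. Their levels are therefore not set against those of the other 6, and only their differences between libraries are used below.

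Apoa1 was the highest of the 6 genes with 1 transcript in liver, at 3491, 13004 and 20736 TPM (lowest, median and highest of 47 strains). Apoh, which encodes β2-glycoprotein I, a plasma protein that binds phospholipid, followed at 1017, 3690 and 7130 TPM. Apob had 889, 3234 and 4632 TPM. Apoa1 was above Apoh in 47 of 47 strains, Apoh above Apob in 42, and Apob above Apoa5 in 47. Apoa5, a regulator of plasma triglyceride, had 137, 900 and 1773 TPM. Apom, which carries sphingosine-1-phosphate on HDL, had 117, 725 and 1346 TPM, and Apoa4, a protein of chylomicrons and HDL, had 22.5, 593 and 3698 TPM. The last 3 overlapped widely, with Apoa5 above Apom in 35 strains and Apom above Apoa4 in 26. The TPM of this paragraph were not scaled by TMM, and for all of these genes but Apom the lowest liver value was that of CC033. In TMM-scaled CPM, liver Apoa1 spanned 2.10-fold between strains and liver Apob 1.79-fold, so the TPM ranges are not read as variation between strains. In kidney, Apom (median 135 TPM) and Apob (104 TPM) led, with Apom above Apob in 30 strains, followed by Apoh (42.4 TPM), Apoa4 (13.1 TPM) and Apoa1 (11.2 TPM). In lung, the medians of these 6 ran from 1.31 TPM for Apoa4 to 17.6 TPM for Apoa1.

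**Figure D1:**
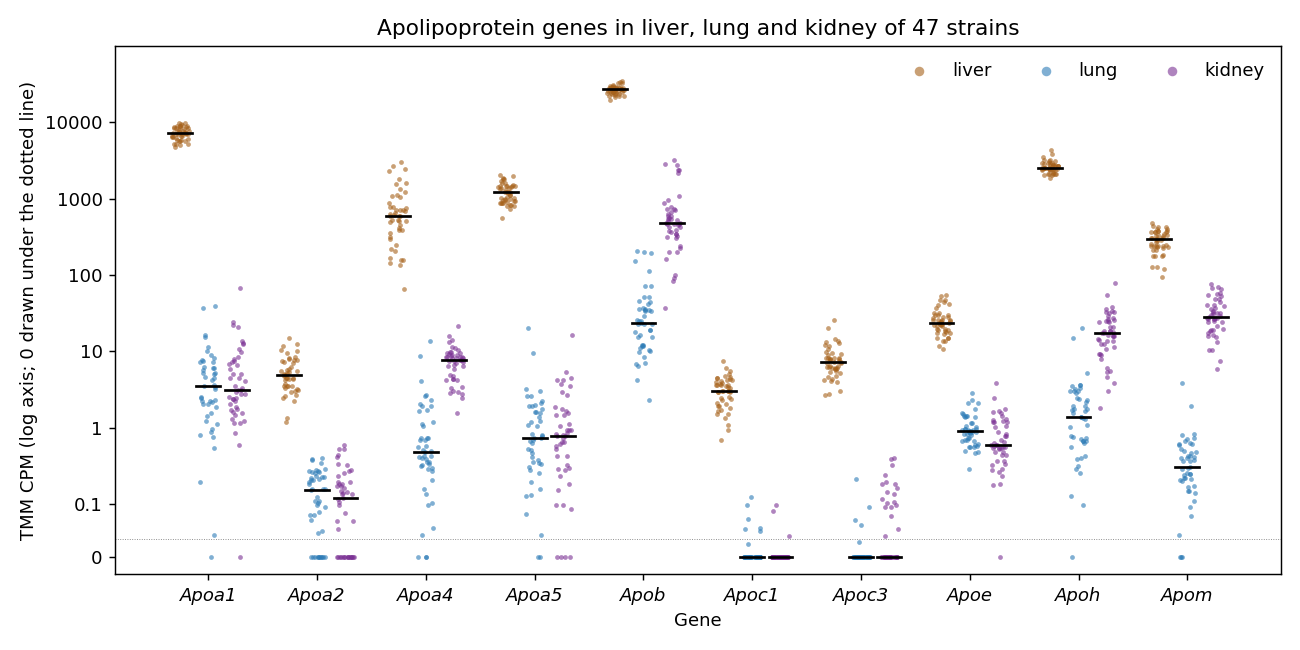
TMM-scaled CPM of each apolipoprotein gene (log axis) in 47 liver, 47 lung and 47 kidney libraries, 1 point per library, with a black bar at the median and values of 0 drawn below the dotted line. Liver lies above both other tissues for all 10 genes, and kidney lies above lung for Apob (medians 483 and 23.2), Apom (28.5 and 0.308), Apoh (17.4 and 1.39) and Apoa4 (7.65 and 0.474). CPM are not scaled by gene length, so heights of different genes are not comparable.

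All 10 genes had more CPM in liver than in lung and kidney of the same mouse in 47 of 47 strains, although Apoc1 in CC033 and CC036 and Apoc3 in CC033 had 3 counts or fewer in liver, which leaves these strains unresolved. The share of all genes that were higher in liver in every strain was not counted. Of the 9 apolipoprotein genes that passed the filter on low counts, 9 were called higher in liver than in lung and 9 higher than in kidney by limma-voom with strain as a block, at a Benjamini-Hochberg q of at most 0.1 and a change of at least 2-fold. Apoa2 and Apoc3 stayed under 1 CPM in all lung and kidney libraries (highest 0.591 and 0.397). These 2 genes passed the filter through liver alone, so their calls in liver followed from the filter and are no separate result. Among all 12127 genes tested, 23.7% were called higher in liver than in lung and 14.7% higher than in kidney, while 31.2% and 22.0% were called lower, a direction that no apolipoprotein gene took. In whole tissue, a difference in the number of cells of a type and one in RNA per cell cannot be told apart.

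Apob had 19486, 27112 and 34910 CPM in liver (lowest, median, highest), 2.28, 23.2 and 208 in lung, and 37.3, 483 and 3233 in kidney. The 3 tissues ranked liver, kidney, lung, and the ranges of liver and the other tissues lay far apart. Its log2 fold change was 9.996 ± 0.19 (SE) for liver over lung (q = 3.1e-71, limma) and 5.70 ± 0.19 for liver over kidney (q = 5.4e-50, limma). Apoa1 had 4713, 7172 and 9892 CPM in liver, 0, 3.46 and 39.4 in lung, and 0, 3.15 and 67.9 in kidney. Lung and kidney were alike in range, and liver was higher by 10.96 ± 0.17 and 10.90 ± 0.17 on the log2 scale (q = 1.8e-80 and 6.8e-80, limma). Apoa2, the second protein of HDL, rose from at most 0.397 CPM in lung and 0.591 in kidney to 1.19, 4.85 and 14.7 CPM in liver. It was at or under 3 counts, the floor used here, in 36 lung and 42 kidney libraries.

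Apoa4 had 65.3, 600 and 3025 CPM in liver, 0, 0.474 and 13.7 in lung, and 1.55, 7.65 and 21.4 in kidney. The log2 fold change was 9.94 ± 0.20 over lung and 6.66 ± 0.16 over kidney (q = 8.8e-71 and 6.2e-64, limma). Apoa5 had 560, 1203 and 2033 CPM in liver, 0, 0.740 and 19.9 in lung, and 0, 0.776 and 16.3 in kidney, with log2 fold changes of 10.39 ± 0.15 and 10.53 ± 0.16 (q = 5.1e-83 and 3.0e-81, limma). Both genes thus had liver ranges that did not meet those of lung or kidney, and the share of all genes with such ranges was not counted. Apoc3, an inhibitor of triglyceride clearance, had 2.68, 7.33 and 25.5 CPM in liver but only 6 counts over all lung and 30 over all kidney libraries. Apoc1, a small protein of the same family, had 0.689, 3.02 and 7.50 CPM in liver, and 9 counts over all lung and 3 over all kidney libraries. Apoc1 did not pass the filter and was not tested. Apoe, a ligand of the LDL receptor family, had 10.8, 23.5 and 54.4 CPM in liver, 0.286, 0.897 and 2.85 in lung, and 0, 0.595 and 3.89 in kidney. Its log2 fold change was 4.62 ± 0.10 over lung and 4.99 ± 0.10 over kidney (q = 2.3e-67 and 6.6e-69, limma).

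Apoh had 1889, 2536 and 4310 CPM in liver, 0, 1.39 and 20.2 in lung, and 1.82, 17.4 and 79.2 in kidney, with log2 fold changes of 10.84 ± 0.16 over lung and 7.33 ± 0.13 over kidney (q = 2.8e-83 and 4.7e-75, limma). Apom had 93.8, 297 and 472 CPM in liver, 0, 0.308 and 3.87 in lung, and 5.84, 28.5 and 76.5 in kidney. In lung it was at or under 3 counts in 22 libraries. Its liver and kidney ranges came closest to each other, with a log2 fold change of 3.22 ± 0.10 (q = 1.1e-52, limma), against 9.60 ± 0.15 over lung (q = 5.4e-80, limma).

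Between lung and kidney, 5 of the 9 tested genes were called lower in lung, where 21.7% of all genes were, and 0 were called higher, where 24.6% were. Apom showed the largest difference of the 9, with a log2 fold change of -6.38 ± 0.15 for lung over kidney (47 of 47 strains, q = 4.7e-64, limma). Apob followed (47 strains, -4.29 ± 0.20, q = 5.3e-39), then Apoh (45 strains, -3.51 ± 0.15, q = 2.0e-40) and Apoa4 (45 strains, -3.28 ± 0.19, q = 5.9e-31), all by limma. The fifth, Apoc3, was at or under 3 counts in 47 lung and 46 kidney libraries, so no fold is given. It came under the 2-fold threshold with DESeq2 size factors, with total counts and with log2(TPM + 1) or log2(TPM + 0.1). Apoe was 0.37 ± 0.10 higher in lung on the log2 scale (30 of 47 strains, q = 6.1e-04, limma), under the 2-fold threshold. On the log2(TPM + 0.1) scale the difference was 1.06 and passed it. For Apoa1 (-0.06 ± 0.17, q = 0.743) and Apoa5 (0.14 ± 0.15, q = 0.365), no difference past the threshold was found by limma, and 23 of 47 strains were higher in lung for each.

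The low level outside liver was also set against that of Alb, the gene of albumin and a defining hepatocyte marker, as a percentage of the liver CPM of the same mouse. In lung, Alb stood at 0.00117, 0.0513 and 0.597% of liver (lowest, median, highest). Medians from about that of Alb to somewhat above it were found for Apoa1 (0.0478%), Apoh (0.0548%), Apoa5 (0.0650%), Apob (0.0924%), Apom (0.110%) and Apoa4 (0.10%), and each of these was above the Alb share in 19 to 39 of 47 strains. Other hepatocyte markers in lung ranged from a median of 0 for Itih1 to 0.0729% for Hpx and 0.152% for Itih3. Hpx was above the Alb share in 34 strains and Itih3 in 46. Itih1, with 2 listed transcripts and a liver median of 3.19 CPM, was at or under 3 counts in 47 lung and 46 kidney libraries. Its share was thus unresolved in both tissues. Apoe had 1.46, 3.84 and 17.1% and a share above that of Alb in 47 strains, and Apoa2, mostly at or under 3 counts in lung, a median of 2.15% and a higher share than Alb in 36. In kidney, the Alb share had a median of 0.0506%, and Apoa1 (0.0477%) and Apoa5 (0.0740%) were again near it. Apom (10.5%), Apob (1.99%) and Apoa4 (1.08%) exceeded the Alb share in 47 of 47 kidneys and Apoh (0.649%) in 45, as did Apoe (2.64%) in 46. Hepatocyte markers were not all as low as Alb in kidney: transthyretin (Ttr) stood at 1.33% of liver and fibrinogen α (Fga) at 0.415%, Fgg at 0.156% and Serpinc1 at 0.118%, Itih1 had a median of 0, and the other 6 (Fgb, Ahsg, Hpx, F2, Ambp and Itih3) lay between 0.0421 and 0.0848%.

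**Figure D2:**
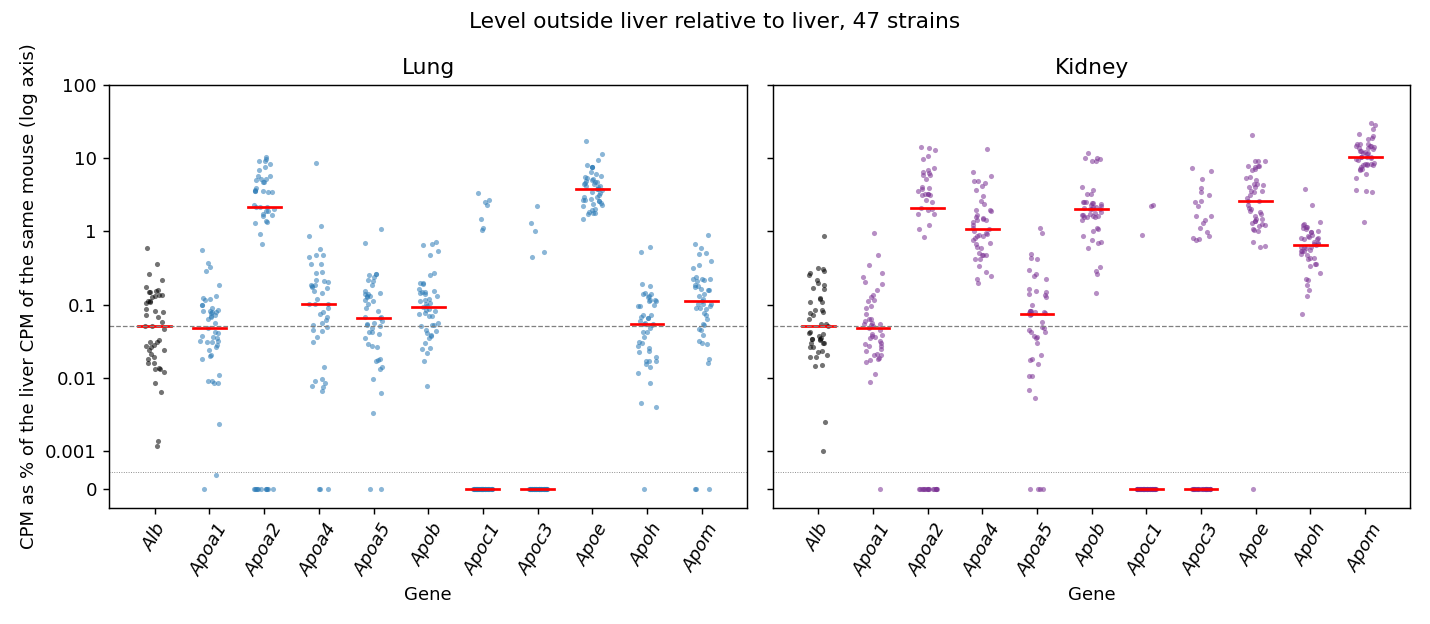
CPM in lung (left) and kidney (right) as a percentage of the liver CPM of the same mouse (log axis, 1 point per strain, red bar at the median, 0 drawn below the dotted line), for Alb in black and the apolipoprotein genes in colour, with a dashed line at the Alb median. In kidney, Apom (median 10.5%), Apob (1.99%), Apoa4 (1.08%) and Apoh (0.649%) lie above Alb (0.0506%), and Apoa1 (0.0477%) lies level with it.

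Across lung libraries, most of these genes varied with hepatocyte genes. The correlations are Pearson's r of rank-based inverse normal values of TMM-scaled TPM over 47 strains, adjusted over all 86695 tests of an apolipoprotein gene with another gene, of which 0.431% were called positive and 0.0404% negative. Apoa1 was most like fibrinogen β (Fgb, r = 0.974), Alb (0.967) and Pzp (0.955), which encodes a plasma protease inhibitor of liver. Apoa4 was most like Bhmt (0.863), Alb (0.849) and Gc (0.837), Apoa5 like Fgb (0.942), Gc (0.923) and Alb (0.912), and Apoh like Gc (0.925), Ambp (0.914) and Alb (0.910). For each of these 12 pairs the permutation p was 1.0e-05 for r and for Spearman's rho, the smallest that 100000 permutations can give, with rho from 0.834 to 0.971 and r from 0.788 to 0.972 without the 2 strains farthest from the median. Apob was less close, with Slco1b2 at 0.688, Hpd at 0.671 and C4bp at 0.660, and so was Apom, with Pzp at 0.637, Alb at 0.627 and Rgn at 0.623 (permutation p = 1.0e-05 for each r, and r from 0.517 to 0.679 without the 2 farthest strains). The summed hepatocyte markers moved with the lung level of Apoa1 (r = 0.974), Apoh (0.917), Apoa5 (0.929), Apoa4 (0.854), Apob (0.642) and Apom (0.620), each with an adjusted permutation p of 1.4e-04 over 111 relations. Alb made up much of this sum in lung (median 36.1 of 62.5 CPM, and 403 of 587 CPM in CC010). The sum is therefore not independent of the relations with Alb. The part of liver RNA in these lung levels was not tested. Lung Apom rested on a median of 4 counts, with 22 libraries at or under 3, so counting error limits its r.

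Lung Apoe gave r = -0.035 with the summed hepatocyte markers (permutation p = 0.815). None of its 3 most alike genes was a hepatocyte marker: they were Mkrn2 (r = -0.614, permutation p = 1.0e-05), Snora70 (0.588, 1.0e-05) and Snord35a (0.577, 5.0e-05). With the summed level of 11 macrophage markers, Apoe gave r = -0.045 in lung (permutation p = 0.765) and 0.027 in liver (permutation p = 0.859). In kidney that r was 0.321 (permutation p = 0.028, adjusted p = 0.164). The lung level of Apob also held libraries that did not follow Alb. CC011 had 202 CPM of Apob at 18.6 CPM of Alb, CC003 had 192 at 39.6 and CC028 had 51.8 at 1.07, whereas CC010 and CC015, highest in Alb (403 and 371 CPM), had 208 and 153 CPM of Apob.

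**Figure D3:**
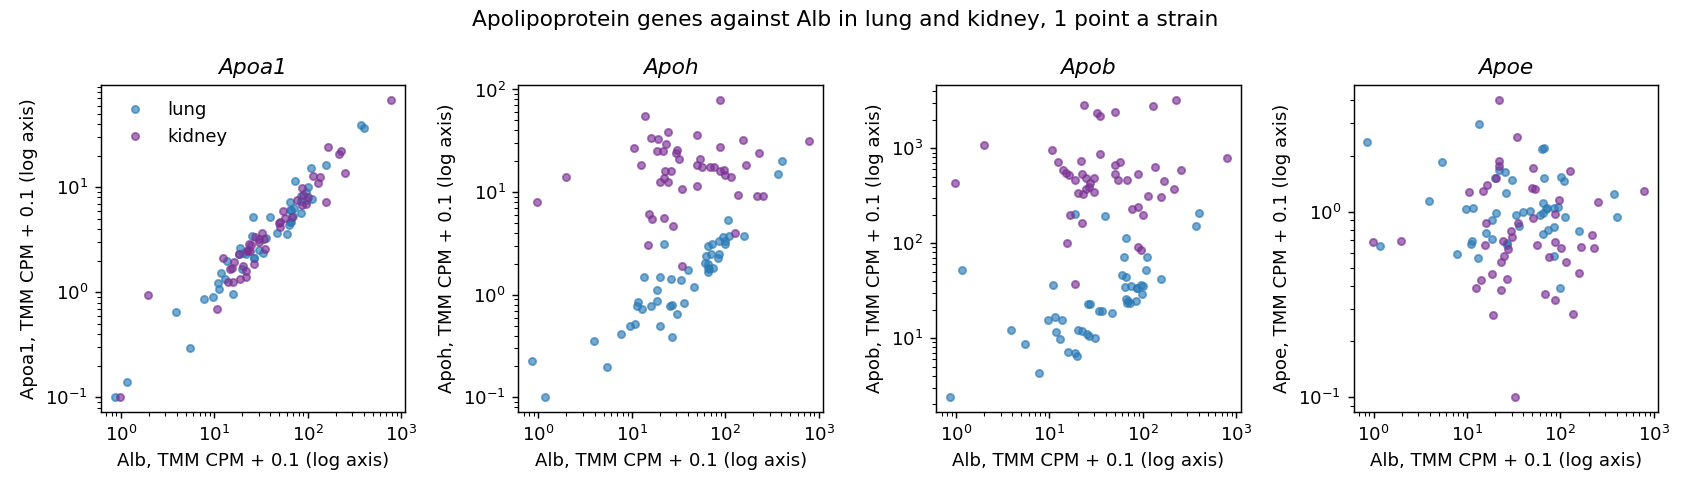
Level of Apoa1, Apoh, Apob and Apoe against Alb in lung and kidney (TMM-scaled CPM + 0.1, both axes log, 1 point per strain). Apoa1 follows Alb in both tissues (r = 0.967 in lung and 0.959 in kidney), Apoh does so in lung (0.910) but lies higher in kidney at the same Alb, and Apoe shows no such line.

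In kidney, 0.0727% of 64611 tests were called positive and 0.0387% negative. Apoa1 was again most like Alb (r = 0.959), Serpina3k (0.928) and Cps1 (0.924), with a permutation p of 1.0e-05 for each and r from 0.913 to 0.952 without the 2 farthest strains. The summed hepatocyte markers were not used here, since Ttr made up much of the sum in kidney (median 74.8 of 161 CPM, and 549 of 581 CPM in CC005). Apoh was most like Acbd4 (r = 0.684, rho = 0.673, permutation p = 1.0e-05, 0.656 without the 2 farthest strains), then Sh3gl2 (0.588) and Tmem165 (-0.570). Apom went with Retsat (0.564), which encodes a retinol saturase, and against the leukocyte genes Selplg (-0.571) and Cd52 (-0.570). The 11 macrophage markers, summed to 47.2, 77.6 and 334 CPM in kidney, moved against Apom as well (r = -0.465, rho = -0.385, permutation p = 0.00105, adjusted p = 0.00832, r = -0.348 without the 2 farthest strains). Of these 11 markers, 5 exceeded 3 counts in most kidney libraries. The kidney of CC020 held both the highest macrophage sum and the lowest Apom (5.84 CPM), together with the lowest kidney tubule sum (13088 CPM). The kidney tubule markers gave r = 0.031 with Apom over the 47 strains (permutation p = 0.834). Kap, one of these markers, was among the genes with the highest TPM in kidney, and its part in the sum was not tested. Kidney Apoe, with a median of 6 counts and 14 libraries at or under 3, was higher where the kidney tubule markers were lower (r = -0.514, rho = -0.490, permutation p = 1.8e-04, adjusted p = 0.002, r = -0.418 without the 2 farthest strains). Its highest value, 3.89 CPM, was also that of CC020. Its 3 most alike genes were Asb13 (-0.643), B9d2 (-0.586) and the alcohol dehydrogenase gene Adh1 (-0.582). The sole gene called with kidney Apoa4 was Azi2 (-0.577).

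Kidney Apob varied 86.8-fold between strains, against 1.79-fold for liver Apob. CC024 had 3233 CPM, CC019 2863, CC004 2768, CC028 2389, CC029 2375 and CC045 2165. The next strain, CC030, had 1070 CPM, and the other end was CC025 with 91.2, CC023 with 84.0 and CC059 with 37.3 CPM. So 6 kidneys lay above a gap and 41 below it, and all of these values rest on at least 211 counts. In the same 6 mice, liver Apob ran from 23561 to 29109 CPM (quartiles of all strains 24487 and 28422) and kidney Alb from 23.2 to 229 CPM. Their lung Apob, in the same order of strains, was 52.0, 15.4, 70.7, 51.8, 36.5 and 113 CPM, of which 4 exceeded the upper quartile of lung (39.0 CPM) and that of CC019 lay under the median (23.2 CPM). CC030 had 1070 CPM of Apob at 1.87 CPM of Alb. Since the 6 were told apart by their kidney values, no test was made between them and the other strains.

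**Figure D4:**
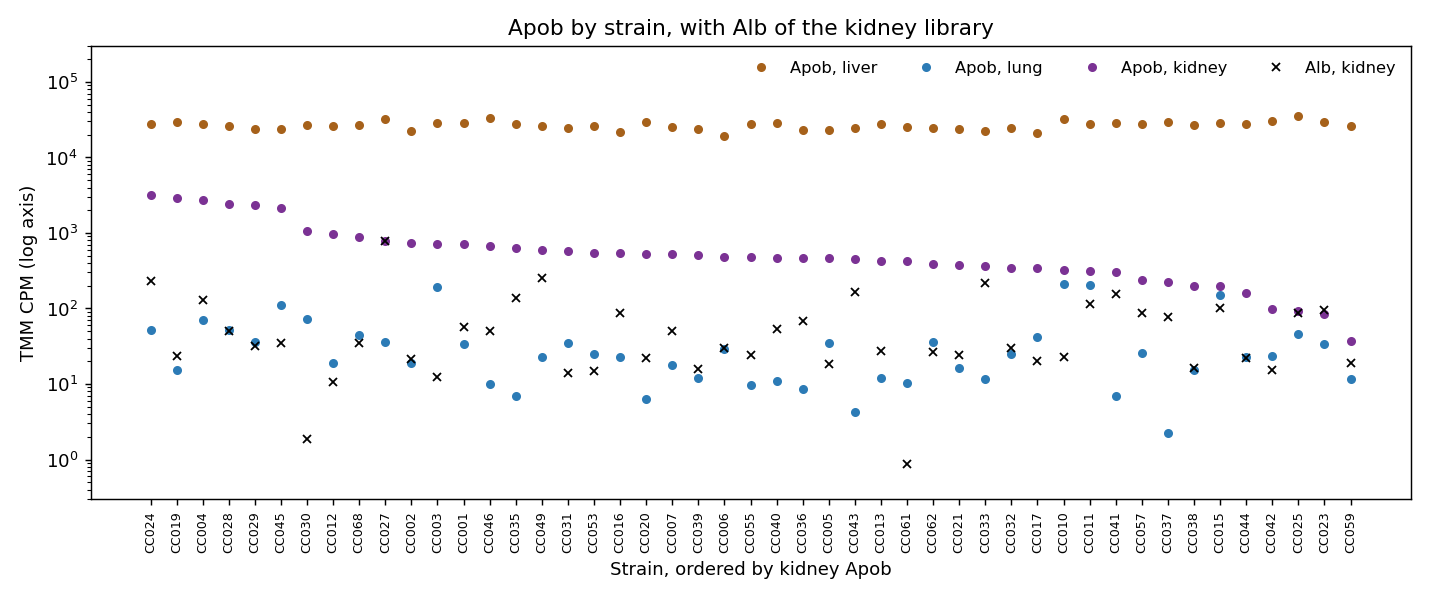
Apob in liver, lung and kidney and Alb in kidney (TMM-scaled CPM, log axis) for each of 47 strains, ordered by kidney Apob. Kidney Apob falls from 3233 CPM in CC024 to 37.3 in CC059 with a gap between 2165 and 1070, liver Apob stays between 19486 and 34910 CPM, and kidney Alb does not follow the order.

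In liver, the genes differed widely in how much they varied between strains. The SD of log2 CPM was 0.17 for Apob, a value below those of all but 1.53% of 9002 expressed liver genes. It was 0.24 for Apoh (percentile 14.6), 0.28 for Apoa1 (23.7), 0.42 for Apoa5 (54.6), 0.53 for Apom (66.3) and 1.23 for Apoa4 (94.3). Poisson counting alone would give at most 0.05 for these 6. Apoa4 spanned 46.3-fold, from 65.3 CPM in CC033 over 136 in CC038 and 145 in CC045 to 2682 in CC039 and 3025 in CC007. CC033, whose liver library held the kidney and lung markers named above, had only 42 counts of Apoa4 and was also the lowest for Apoa5 (560 CPM), and CC035 was the lowest for Apoh (1889 CPM). Without these 2 libraries, chosen after the data were seen, the span of Apoa4 was 22.3-fold (SD 1.16), that of Apoa5 2.77-fold in place of 3.63-fold, and that of Apoh 2.12-fold in place of 2.28-fold, and their part in the spread was not tested further. The size of these SDs rests on the scaling. With total counts that were not scaled by TMM, they were 0.73 for Apob, 0.82 for Apoh, 0.82 for Apoa1, 0.96 for Apoa5, 1.04 for Apom and 1.68 for Apoa4, and with log2(TPM + 1) 0.45, 0.53, 0.54, 0.70, 0.77 and 1.47. The other 4 genes had SDs of 0.56 (Apoe), 0.66 (Apoc3), 0.69 (Apoc1) and 0.76 (Apoa2), and counting alone would give 0.14 for Apoe and 0.32 for Apoa2. Outside liver, genes that were nearly constant in liver were among the more variable, with SDs of 1.42 in lung (percentile 98.1) and 1.34 in kidney (97.4) for Apob.

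Levels in 1 tissue were next set against those in another. Of 7 apolipoprotein genes that passed the filter in liver and lung, 0 were called correlated across strains, where 13.2% of 8517 genes were. Their r ran from -0.205 (Apom, with 22 lung libraries at or under 3 counts) to 0.163 (Apoe). Of 6 in liver and kidney, among them Apob, whose kidney values fall apart as described, 0 were called, where 23.1% of 8483 genes were. The highest were Apoh (r = 0.316, rho = 0.327, permutation p = 0.0304, q = 0.118, r = 0.285 without the 2 farthest strains) and Apom (0.310, 0.329, 0.033, 0.126 and 0.221). Apom passed the threshold with TPM that were not scaled by TMM (r = 0.379, q = 0.0723). Of 6 in lung and kidney, 0 were called, where 17.0% of 10057 genes were, and Apoa4 was negative (r = -0.315, rho = -0.322, permutation p = 0.0304, q = 0.142, r = -0.301 without the 2 farthest strains). At an unadjusted permutation p under 0.05, these 3 pairs were the only ones of 19.

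Within liver, 7 of the 45 pairs of apolipoprotein genes were called, all positive. Of all 89965 tests with another gene, 1.04% were called positive and 0.370% negative. In the chromosome 9 cluster, Apoa4 and Apoa5 rose and fell together (r = 0.487, rho = 0.489, permutation p = 4.5e-04, q = 0.0682, r = 0.634 without the 2 farthest strains), and the other pairs of the cluster did not pass (Apoa1 gave 0.338 with Apoa5, 0.186 with Apoa4 and -0.151 with Apoc3, and Apoc3 gave 0.25 with Apoa4 and 0.097 with Apoa5). The HDL genes Apoa1 and Apom were called (r = 0.486, rho = 0.491, permutation p = 6.2e-04, q = 0.0693, 0.435), and so were Apoh and Apom (0.455, 0.455, 0.00135, 0.0968, 0.349), a call that was lost with Spearman's rho (q = 0.103) and with a TPM filter of 0.1 (q = 0.124). The other 4 pairs joined genes with several transcripts: Apoa2 with Apoc1 (r = 0.591, q = 0.0117), Apoe (0.525, q = 0.0391) and Apoc3 (0.523, q = 0.0399), and Apoc3 with Apoe (0.485, q = 0.0695), with permutation p from 3.0e-05 to 4.5e-04. Thus 4 of 6 pairs of genes with several transcripts were called, 3 of 15 pairs with 1 transcript each, and 0 of 24 mixed pairs. The part of the shared way of counting in this pattern was not tested. The pairs rest on the scaling. With TPM that were not scaled by TMM, 44 of the 45 pairs were called, as were 83.4% of all tests in the positive direction. Without the 4 strains with a shallow library, which was that of lung in CC010 and CC045, 4 pairs were called. Apoc3 with Apoe, Apoa1 with Apom and Apoh with Apom were lost. Without CC033 and CC035, 4 pairs were called as well, all of genes with several transcripts, and the 3 pairs with 1 transcript each were lost: Apoa4 with Apoa5 (r = 0.431, q = 0.162), Apoa1 with Apom (0.463, q = 0.117) and Apoh with Apom (0.421, q = 0.177). The 10 genes with the highest TPM in liver, led by Rn45s, a ribosomal RNA gene, took from 19.1 to 81.4% of a library, and TMM factors ranged 4.13-fold.

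**Figure D5:**
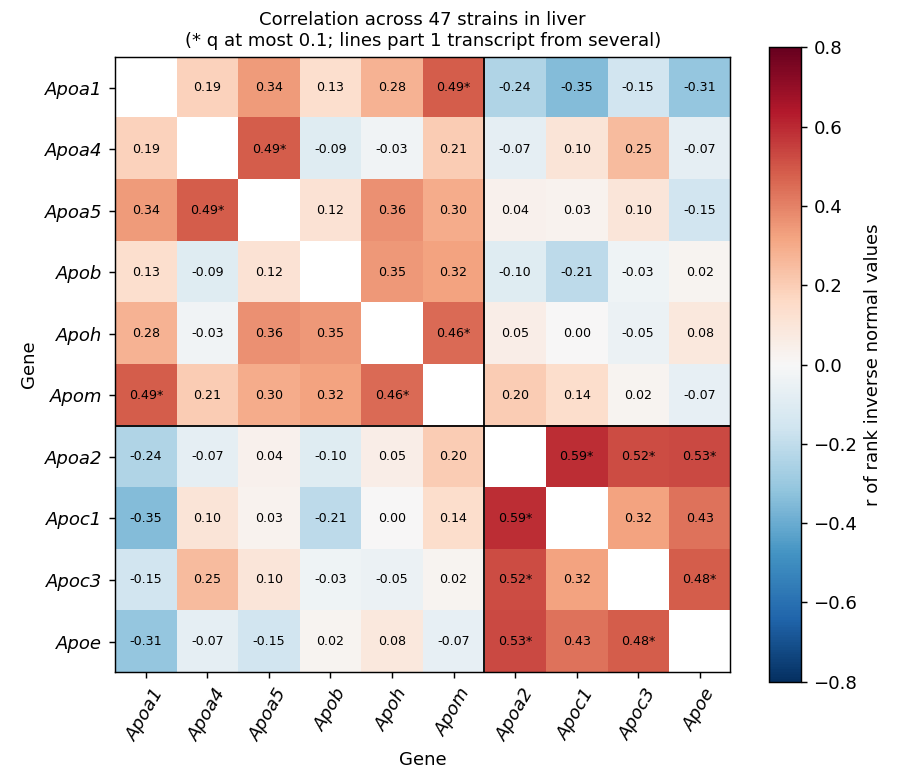
Correlation across 47 liver libraries (r of rank-based inverse normal values of TMM-scaled TPM) for each pair of apolipoprotein genes, with an asterisk at q of at most 0.1 and lines that separate the 6 genes with 1 listed transcript from the 4 with several. Called pairs lie within the first block, such as Apoa4 with Apoa5 (0.487), and the second, such as Apoa2 with Apoc1 (0.591), and none lies between them.

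The 3 liver genes most like each apolipoprotein gene are given next. Apom was most like Rpl41 (r = 0.725) and Rplp0 (0.712), which encode ribosomal proteins, and Actr1a (0.699). Apoa1 went with Rpl28 (0.585) and against Acer3 (-0.602) and Cd2ap (-0.595). The summed level of 105 ribosomal protein genes moved with Apom (r = 0.671), Apoh (0.541), Apoa5 (0.478) and Apoa1 (0.417). Adjusted permutation p was 1.4e-04, 8.6e-04, 0.00555 and 0.0246 in the same order. This group was not on a list fixed beforehand, so the sum is no independent support for the single ribosomal genes. Apoh was most like Acadvl (0.693) and Acaa2 (0.661), enzymes of fatty acid oxidation, and the transporter gene Abcb6 (0.665). Apoa5 went with Prodh2 (0.670), an enzyme of hydroxyproline breakdown, and against Ston2 (-0.684) and Brwd3 (-0.659). Apob went with Pgrmc1 (0.675), which encodes a membrane-bound haem protein, and N4bp2l2 (0.605), and against Gramd1b (-0.648), a carrier of cholesterol. Apoa4 went with Agpat3 (0.578), an enzyme of phospholipid synthesis, AI507597 (0.568) and 2810410L24Rik (0.567). Permutation p was at most 6.0e-05 for these 18 pairs, and r kept its sign without the 2 farthest strains in each.

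Of the genes with several transcripts, Apoe was most like Sepp1 (r = 0.727), which encodes the plasma selenium carrier, and the small nucleolar RNA genes Snord49a (0.691) and Snord83b (0.653). Of 63 genes called positive with Apoe, 29 were small nucleolar or Cajal body RNA genes, which make up 61 of 8992 genes in the filter, and the summed level of 114 such genes moved with Apoe in liver (r = 0.527, rho = 0.537, permutation p = 2.1e-04, adjusted p = 0.00212, r = 0.526 without the 2 farthest strains) and in lung (0.489, 0.435, 3.7e-04, 0.00342 and 0.442). For Apoc3, 5 of 15 genes called positive were of this kind, and its r with the sum was 0.376 in liver (adjusted permutation p = 0.065). This group was chosen after the values were seen. Lung Apoe also moved against the library total (r = -0.356, rho = -0.277, permutation p = 0.0142, adjusted p = 0.0927, r = -0.209 without the 2 farthest strains). Apoa2 was most like Slc6a12 (0.576), Atic (0.539) and Pkhd1 (0.525). Apoc1 was most like Pls1 (0.568), Pigl (-0.545) and Flt1 (-0.537), and Apoc3 like Zfp369 (0.527), Snora5c (0.512) and Fibp (-0.511). Permutation p was at most 2.0e-04 for these 12 pairs.

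Other genes of lipoprotein metabolism were taken from 5 lists. Of 12 other apolipoprotein and related genes, among them the receptor gene Apobr, 8 were tested. Of these, 6 were higher and 1 lower in liver than in lung (23.7% and 31.2% of all genes), and 6 were higher than in kidney (14.7%). The list medians were 8.59 and 6.97 on the log2 scale, against -0.065 and -0.075 for all genes. Apoc4 had a median of 510 CPM in liver, 0.273 in lung and 0.242 in kidney (log2 fold change 10.80 ± 0.14 and 10.61 ± 0.15), Apon had 340 CPM in liver (10.37 ± 0.12 and 10.69 ± 0.13), Saa4 348 CPM (10.51 ± 0.23 over lung) and Apof 720 CPM (10.84 ± 0.14 over kidney). Between lung and kidney, Apobr, a receptor of macrophages for ApoB, had a log2 fold change of 3.27 ± 0.09 for lung over kidney and Saa4 one of -3.15 ± 0.22.

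Of 13 genes for assembly and secretion, 10 were tested. In liver, 8 were higher and 1 lower than in lung, and 6 were higher than in kidney, while 6 of 10 were lower in lung than in kidney and 2 higher. Of all genes, 23.7% were higher and 31.2% lower in liver than in lung, 14.7% were higher than in kidney, and 21.7% were lower and 24.6% higher in lung than in kidney. A1cf, a partner of the enzyme that edits Apob RNA, had median levels of 258, 109 and 0.283 CPM in liver, kidney and lung (9.84 ± 0.10 for liver over lung and -8.66 ± 0.10 for lung over kidney). Cideb, which helps to load lipid onto particles, had 29.9, 17.0 and 0.135 CPM in the same order (7.46 ± 0.11 for liver over lung). Soat2, an enzyme that esterifies cholesterol, had 35.8 CPM in liver, 0.620 in lung and 0.194 in kidney. Mttp, the protein that loads lipid onto ApoB, had 6.46 CPM in liver and 1.30 in kidney (2.35 ± 0.09) from 2 listed transcripts, and Dgat2, an enzyme of triglyceride synthesis, had 546, 150 and 17.9 CPM in liver, kidney and lung. With log2(TPM + 1), 2 genes of this list were called between liver and kidney and 5 between lung and kidney.

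Of 13 genes of lipases, transfer proteins and their regulators, 12 were tested, with 6 higher and 3 lower in liver than in lung (23.7% and 31.2% of all genes), and 9 higher and 1 lower than in kidney (14.7% and 22.0%). Lcat, which esterifies cholesterol on HDL, had 344 CPM in liver, 1.52 in lung and 0.591 in kidney (7.76 ± 0.07 and 8.97 ± 0.08). Pon1, an HDL enzyme, had 785, 31.0 and 0.548 CPM in liver, lung and kidney. Lung also exceeded kidney for Pltp, a phospholipid transfer protein (126 and 3.67 CPM, 4.99 ± 0.10), and endothelial lipase Lipg (43.9 and 2.07 CPM, 4.13 ± 0.12), and 5 genes of the list were higher and 4 lower in lung than in kidney (24.6% and 21.7% of all genes).

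Of 17 receptor and transporter genes, 15 were tested, with 5 higher and 5 lower in liver than in lung, 6 and 7 than in kidney, and 4 higher and 5 lower in lung than in kidney. The shares of all genes were 23.7% and 31.2%, 14.7% and 22.0%, and 24.6% and 21.7% in the same order, and with log2(TPM + 1) 6 genes of this list were called between liver and lung. Abcg5, a sterol exporter, had 104 CPM in liver, 0.222 in lung and 0.145 in kidney. The endocytic receptors of the proximal tubule went the other way. Lrp2 had 6937 CPM in kidney, 183 in lung and 13.1 in liver, Cubn had 1335, 2.66 and 2.64, and Amn, its partner, had 40.0 CPM in kidney and 0.0514 in lung. Cd36, a fatty acid carrier, had 4.66 CPM in lung and 0.269 in liver from 5 listed transcripts (-3.68 ± 0.16 for liver over lung). Of 19 transcription factor genes, 13 were tested, with 9 higher in liver than in lung (23.7% of all genes), 8 higher than in kidney (14.7%) and 0 lower than either (31.2% and 22.0%), and 6 lower and 1 higher in lung than in kidney (21.7% and 24.6%). Creb3l3 had 366 CPM in liver, 0.455 in lung and 0.331 in kidney (9.60 ± 0.10 and 9.74 ± 0.11). Onecut1 had 24.5 CPM in liver and a median of 0 in both other tissues, and Nr0b2 had 0 CPM in lung and 0.974 in kidney, with a log2 fold change of 4.62 ± 0.10 for liver over kidney. Kidney exceeded lung for Hnf4a (15.4 and 0 CPM, 3 listed transcripts) and Mlxipl (88.5 and 3.31 CPM, -4.69 ± 0.08 for lung over kidney). Among the genes of these lists, every change given as log2 fold change ± SE had a q of at most 1.5e-25 by limma.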

How the data were processed

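RNA was sequenced by the authors from whole liver, lung and kidney, with reads aligned by STAR 2.5.3a within RSEM to pseudo-genomes of each strain (Build37, mm9) with RefSeq transcripts, and uniquely aligned reads used for quantification. The expected count (RSEM's estimated count per gene) and the TPM that the authors deposited were used, and their FPKM was not. Groups came from the sample titles. Counts were rounded and scaled by TMM (edgeR 4.0.16), and tissues were compared in one limma-voom fit (limma 3.58.1 under R 4.3.3), in which strain formed the replicate block, over genes that exceeded 1 CPM in 30% of libraries or more. The 3 tissues of a strain come from the same mouse, and the median r across strains of the same gene in 2 tissues was 0.136, 0.184 and 0.153 over all genes for liver with lung, liver with kidney and lung with kidney. The study's batch term is not among the labels used here. SDs were taken on log2 CPM (prior count 1). Correlations used genes with TMM-scaled TPM above 1 in more than 50% of libraries, rank inverse normal values (offset 0.375), and p-values from the t distribution adjusted by Benjamini-Hochberg over all tests. For printed relations, 2-sided permutation p came from 100000 draws (Python 3.11.15, numpy 2.4.6, scipy 1.17.1), and adjusted p over measures are over 111 relations. Values at or under 3 counts were read as unresolved, for counting error only. Both steps were first tested on simulated data. The apolipoprotein genes and all lists were chosen with earlier results of these data known. Named genes were all apolipoprotein genes, the 3 genes of each list with the largest change past the threshold per tissue pair, the 3 genes with the largest absolute r per gene and tissue, and cell type markers. A few genes that this rule names, and 1 motif, are not reported here. Alternatives are given under the dependence on processing.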

Additional observations from a re-analysis of the deposited data

How the results depend on the processing

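All 9 tested genes were called higher in liver than in lung and than in kidney under 14 alternatives of scaling, pseudocount, filter, test, threshold, fit and libraries, and with no filter on low counts Apoc1 joined them as the tenth. As given above, Apoa2 and Apoc3 passed that filter through liver alone. Chosen after seeing the data were total counts without TMM, leaving out CC010, CC015 and CC027, and leaving out CC033 and CC035. The tissues of a strain are paired by mouse, and with no replicate block the counts were again 9, 9 and 5, with 122 calls over the lists both with and without it. Between lung and kidney, 4 to 6 genes were called. Apoc3 came under 2-fold in 4 alternatives. With log2(TPM + 1), 104 calls over the lists were made. Without TMM, 1 gene was called correlated between liver and kidney, 44 pairs were called in liver, and the median SD of the 10 genes in liver was 0.945 in place of 0.542. Under q of at most 0.01, 0 pairs were called in liver, without the 4 strains with a shallow library 4 were, and without CC033 and CC035 4 were. The cause of these changes was not tested. In liver TPM without TMM, r turned from negative to positive and was called for Apoa1 with Apoa2 (0.260), Apoc3 (0.383) and Apoe (0.329), for Apoa4 with Apoa2 (0.277), Apob (0.478), Apoe (0.370) and Apoh (0.492), for Apob with Apoa2 (0.447), Apoc1 (0.396) and Apoc3 (0.454), for Apoe with Apoa5 (0.373) and Apom (0.391), and for Apoc3 with Apoh (0.477). Low totals limit Apoa2, Apoc1 and Apoc3 outside liver, where most libraries held 3 counts or fewer. They limit Apom in lung as well, where 22 libraries did.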
